A study of Mus musculus with 18 samples.

Results

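The genes described here were 35 genes of glycolysis and of the response to low oxygen, chosen by gene name out of the 21734 protein-coding genes of a count table from mouse bone marrow-derived macrophages (BMDMs). They comprised 5 glucose and lactate carriers, 15 glycolytic enzymes, 3 regulators of glycolytic flux, 5 genes of the HIF1 transcription factor and its oxygen sensors, and 7 hypoxia-response targets. RNA was sequenced from 18 libraries in 6 groups of 3 biological replicates. The mice were wild-type for miR-146a (WT), lacked it (KO), or carried the 3F allele, in which the seed of miR-146a is intact and part of its 3′ region has been exchanged with the opposite strand of the duplex. All mice were of a mixed 129 and B6 background and 6 to 7 months old, and each genotype supplied 3 animals. Marrow was grown for 8 to 9 days in 10 ng/ml M-CSF and then received fresh medium without LPS (resting) or with 1 ng/ml LPS, a bacterial cell wall component, for 16 h. The mutant alleles were made by gene targeting in embryonic stem cells and were kept as separate lines, with wild-type controls drawn from both lines, so a difference between lines that is unrelated to miR-146a cannot be told apart from the effect of an allele.

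Glycolysis turns glucose into pyruvate in the cytosol, and lactate dehydrogenase turns pyruvate into lactate, which leaves the cell through monocarboxylate carriers. HIF1, a dimer of HIF1α and ARNT, binds DNA at the core sequences ACGTG and GCGTG and induces glycolytic genes as well as genes of blood vessel growth, autophagy and collagen modification. Prolyl hydroxylases (Egln genes) mark HIF1α for destruction by the VHL protein when oxygen is present. Macrophages exposed to LPS are known to raise glycolysis, and miR-146a is known to restrain signalling from the LPS receptor through Irak1 and Traf6.

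The genotypes differ in the miRNA itself, so its mature sequence is shown first, with the seed (bases 2 to 8) in capitals, as listed by RefSeq on GRCm38.p6. The 5p strand lies at chr11:43374435-43374456, minus strand. KO BMDMs lack this RNA, and 3F BMDMs carry an altered stretch within the lower-case part that follows the seed.
mmu-miR-146a-5p: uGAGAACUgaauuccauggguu

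Most members held a HIF core at a promoter. The choice by name used no sequence, but it named genes of the HIF1 pathway and of glycolysis, so it was not independent of such cores. RefSeq promoter windows, from 250 bases before to 50 after a start, were matched by symbol to 33 of the 35 members, with Slc2a3 and Ndrg1 unmatched, and were searched for ACGTG and GCGTG on both strands. At least 1 start of 30 of the 33 genes (90.9%) held a core, against 8697 of 16285 genes of the whole table (53.4%). The form ACGTG was present for 22 members (66.7%) and for 23.6% of all genes. These matches describe letters in a window and are not binding sites, and several members are textbook HIF1 targets. The windows of the glucose carrier Slc2a6, the mitophagy gene Bnip3 and the angiogenic factor Vegfa are printed as examples from the carriers and the hypoxia targets, chosen after their values were seen. Capitals mark every ACGTG or GCGTG, or its reverse complement, and each window is on the build GRCm38.p6. Slc2a6 is at chr2:27027949-27028248, minus strand, Bnip3 at chr7:138909457-138909756, minus strand and the window nearest the annotated start of Vegfa at chr17:46032328-46032627, minus strand.
Slc2a6: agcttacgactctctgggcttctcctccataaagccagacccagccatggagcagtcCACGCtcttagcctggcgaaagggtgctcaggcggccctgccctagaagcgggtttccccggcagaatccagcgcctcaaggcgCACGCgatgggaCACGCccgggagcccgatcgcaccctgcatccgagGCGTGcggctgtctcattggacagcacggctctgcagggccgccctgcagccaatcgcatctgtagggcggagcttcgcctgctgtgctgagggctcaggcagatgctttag
Bnip3: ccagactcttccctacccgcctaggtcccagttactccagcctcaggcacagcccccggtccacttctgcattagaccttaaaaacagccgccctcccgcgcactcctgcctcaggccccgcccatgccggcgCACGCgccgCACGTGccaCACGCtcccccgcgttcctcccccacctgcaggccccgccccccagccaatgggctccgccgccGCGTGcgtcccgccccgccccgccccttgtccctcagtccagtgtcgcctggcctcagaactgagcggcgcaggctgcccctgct
Vegfa: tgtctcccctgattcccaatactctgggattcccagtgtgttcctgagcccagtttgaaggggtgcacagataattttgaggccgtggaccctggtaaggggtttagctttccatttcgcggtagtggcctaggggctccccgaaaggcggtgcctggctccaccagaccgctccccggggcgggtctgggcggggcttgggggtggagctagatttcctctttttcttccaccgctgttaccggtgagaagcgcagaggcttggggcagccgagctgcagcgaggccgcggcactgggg
The Slc2a6 window held 4 cores, the Bnip3 window 5 and the Vegfa window 0, and another Vegfa start listed by RefSeq held 2. Gpi1, Tpi1 and Vhl, which are described below as higher with LPS, held 0 cores at their listed starts. Hilpda, described below as lower, held 1 and 3 at its 2 starts.

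Total counts ranged from 4071084 to 19818043 per library. Of the 35 members, 34 passed the filter on low counts, as did 11357 genes in all. Adm, which encodes the vasodilator adrenomedullin, did not pass and stayed between 0 and 0.428 CPM (counts per 1000000 of scaled library size). All 9 macrophage markers were detected in every library. The summed level was at most 0.936 CPM for 7 lymphocyte markers, 0.702 CPM for 5 mast cell and basophil markers, 4.68 CPM for 7 dendritic cell markers, 5.21 CPM for 7 fibroblast and stromal markers and 120.1 CPM for 10 neutrophil and precursor markers. The 6 erythroid and megakaryocyte markers summed to 108 to 591 CPM, nearly all of it from Pf4, a chemokine gene that macrophages also express, with 2 or more of the 6 at 0 in every library. Of the fibroblast markers 2 passed the filter on low counts, both called higher with LPS in each genotype, and the part of these cell types in the results was not tested. In bulk RNA, fewer cells of a type and less RNA per cell cannot be told apart. Both libraries numbered 3 among the resting KO and 3F cultures stood apart. On the first principal component, which held 61.8% of the variance, resting KO replicate 3 lay at -19.7 while the other resting KO libraries lay at 28.2 and 31.4, and LPS libraries had the low scores. The summed level of 12 interferon-response genes was 73.6 to 187 CPM in resting WT. It ranged from 376 to 11093 CPM in resting KO, with the highest value in replicate 3, which lay within the range of LPS-treated WT (2749 to 15895 CPM) and KO (10282 to 13909 CPM) libraries. The library labelled resting KO replicate 3 thus went against its label on this list and on the first component. It was kept under its label, whether that culture had met LPS was not tested, and every resting KO value that includes it carries this doubt. Resting 3F replicate 3, the library with the fewest counts, lay apart on the second component (10.2% of the variance). Where leaving out the library changed the call of a member or moved a called value by over 1.5 times, this is stated beside the result.

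LPS raised most of the set in WT BMDMs. Of the 34 members tested, 24 were called higher and 3 lower, and the median log2 fold change was 0.66, while the median over all genes was 0.02. Over all genes tested, 16.3% were called higher and 12.3% lower in the same comparison (edgeR quasi-likelihood test, adjusted p under 0.05). In 3F BMDMs 24 members were called higher and 3 lower, against 17.2% and 14% of all genes, with a median of 0.80. In KO BMDMs 18 members were called higher and 2 lower, against 14.3% and 12.6% of all genes, with a median of 0.55. Without resting KO replicate 3, the KO counts were 26 higher and 2 lower and the median was 0.74. The shares of 14.3% and 12.6% belong to the fit with all libraries, and those of the refit are not given here. The 8 members that gained a call were Hk1, Hk3, Pfkp, Aldoa, Pgam1, Pkm, Egln1 and P4ha1.

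Several calls near the threshold were lost in other settings. In WT the call was lost in 7 of 12 alternatives for Hk1, 6 of 12 for Pkm and 8 of 12 for Vhl, in KO in 6 of 13 for Hk2, 7 of 13 for Gapdh and 5 of 13 for Egln3, and in 3F in 11 of 13 for Arnt and 5 of 13 for Vhl. The alternatives are other fits and single libraries left out. Proliferation genes moved with LPS as well. Of 10 tested, 9 were called lower with LPS in WT, 2 in KO and 3 in 3F, and their summed level in WT went from 864 to 1220 CPM at rest to 366 to 703 CPM with LPS. The part of proliferation in the response of the set was not tested.

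**Figure D1:**
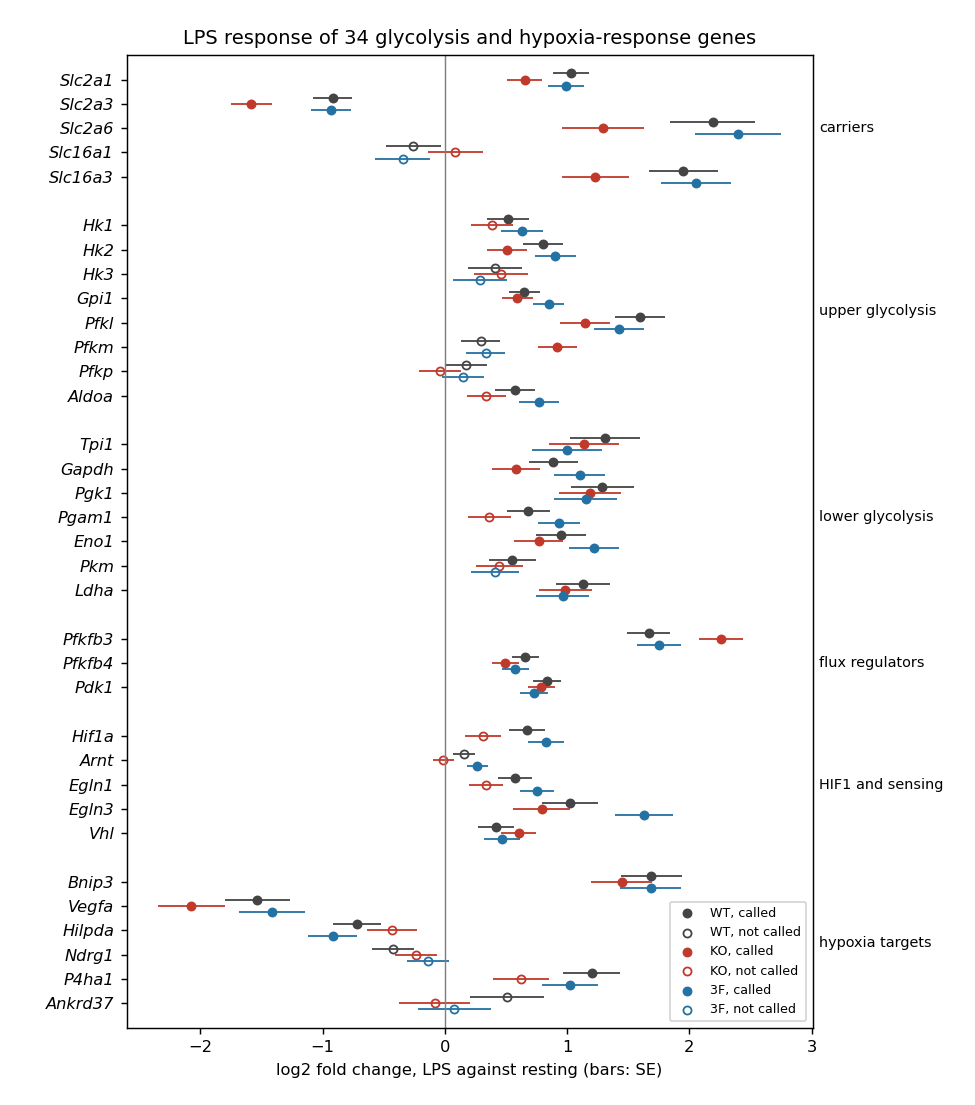
Log2 fold change of LPS over resting BMDMs (x axis) for the 34 tested members, grouped by role, with the standard error as a bar. Filled points were called at an adjusted p under 0.05, and in WT 24 members were called to the right of 0 and Vegfa, Slc2a3 and Hilpda to the left.

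The carriers held both the largest rise of the set and a clear fall. Slc2a6, a GLUT family hexose carrier of lysosomal membranes (chr2:27021363-27027998, minus strand), read 56.4, 38.9 and 35.5 CPM in resting WT libraries and 198, 185 and 215 CPM after LPS. Its log2 fold change in WT was 2.19 (SE 0.35, adjusted p = 2.43e-04). In 3F it went from 43.6, 35.1 and 43.8 CPM to 239, 202 and 202 CPM, a log2 fold change of 2.40 (SE 0.35, adjusted p = 1.12e-04). Resting KO libraries were uneven, and the highest lay within the range of the LPS-treated WT libraries. The KO values were 71.7, 56.7 and 209 CPM at rest and 259.8, 310.3 and 255 CPM after LPS, with a log2 fold change of 1.29 (SE 0.34, adjusted p = 0.00916) that became 2.10 (adjusted p = 5.21e-07) without resting KO replicate 3. Resting and LPS libraries did not overlap in any genotype.

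Slc16a3 (MCT4, chr11:120948480-120960868, plus strand), the carrier that exports lactate from glycolytic cells, followed the same order. Its WT libraries read 114, 98.8 and 134 CPM at rest and 508, 371 and 462 CPM with LPS, a log2 fold change of 1.95 (SE 0.28, adjusted p = 1.05e-04). KO libraries read 151, 156 and 400.3 CPM and 507, 602 and 551 CPM, a log2 fold change of 1.23 (SE 0.28, adjusted p = 0.00337), or 1.85 (adjusted p = 3.49e-07) without resting KO replicate 3. In 3F they read 145, 131 and 118 CPM and 566, 571 and 498 CPM, a log2 fold change of 2.05 (SE 0.28, adjusted p = 6.16e-05). Slc16a1 (MCT1), which carries lactate in both directions, was not called in any genotype, with log2 fold changes of -0.26 (SE 0.22) in WT, 0.09 (SE 0.23) in KO and -0.35 (SE 0.23) in 3F.

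Slc2a1 (GLUT1), the main glucose carrier of proliferating and activated cells, rose from 64.1, 68.4 and 89.4 CPM to 155, 155 and 142 CPM in WT, a log2 fold change of 1.03 (SE 0.15, adjusted p = 9.00e-05). The corresponding values were 0.65 (SE 0.15, adjusted p = 0.00314) in KO and 0.99 (SE 0.15, adjusted p = 1.12e-04) in 3F. Slc2a3 (GLUT3, chr6:122727809-122801640, minus strand), a high-affinity glucose carrier, moved the other way. In WT it read 30.5, 28.3 and 21.2 CPM at rest and 15.2, 13.8 and 13.5 CPM with LPS, a log2 fold change of -0.92 (SE 0.16, adjusted p = 4.88e-04). KO libraries read 20.5, 19 and 27.7 CPM and then 7.99, 7.31 and 6.99 CPM, a log2 fold change of -1.58 (SE 0.17, adjusted p = 3.65e-06). The log2 fold change in 3F was -0.93 (SE 0.16, adjusted p = 5.06e-04). The 3 LPS-treated KO libraries were the lowest of all 18 for Slc2a3, and the lowest resting library of each genotype lay above its LPS libraries.

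Among the 8 enzymes from hexokinase to aldolase, 5 were called higher and none lower in WT. Pfkl, the liver-type phosphofructokinase that commits sugar to glycolysis, had the largest rise of them. WT libraries read 123, 83 and 108 CPM at rest and 336, 272 and 342 CPM with LPS, a log2 fold change of 1.59 (SE 0.21, adjusted p = 3.57e-05). KO libraries read 144, 154 and 267 CPM and 365, 473 and 413 CPM, with 1.15 (SE 0.20, adjusted p = 5.31e-04), and 3F libraries 122, 116 and 138 CPM and 349, 347 and 313 CPM, with 1.43 (SE 0.21, adjusted p = 8.92e-05). Hk2, the inducible hexokinase of the mitochondrial surface, read 93.1, 84.1 and 83.7 CPM in resting WT and 163, 149 and 143 CPM after LPS, a log2 fold change of 0.80 (SE 0.17, adjusted p = 0.00188). It was called higher in KO (0.51, or 0.80 (adjusted p = 7.41e-05) without resting KO replicate 3) and 3F (0.90) as well. Gpi1, which interconverts glucose and fructose phosphates, was called higher in all 3 genotypes, by 0.65, 0.59 and 0.85 in WT, KO and 3F. Hk1, the constitutive hexokinase, and Aldoa, the aldolase, were called higher in WT (0.51 and 0.57) and 3F (0.63 and 0.77), while their KO values of 0.38 (SE 0.17) and 0.34 (SE 0.16) did not pass the test with 3 resting KO libraries. Without resting KO replicate 3 those became 0.72 (adjusted p = 4.29e-05) and 0.60 (adjusted p = 0.00151).

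The other phosphofructokinases and Hk3 were not called in WT. Pfkp, the platelet-type enzyme, was not called in any genotype with all libraries, at 0.18 (SE 0.17) in WT, -0.04 (SE 0.17) in KO and 0.15 (SE 0.17) in 3F. Hk3, a hexokinase of myeloid cells, was not called either, at 0.41 (SE 0.22), 0.46 (SE 0.22) and 0.29 (SE 0.22). Without resting KO replicate 3 both were called higher in KO, Pfkp at 0.30 (adjusted p = 0.0242) and Hk3 at 0.89 (adjusted p = 2.69e-04). Pfkm, the muscle-type enzyme, was called in KO, where it read 14, 12.3 and 15.4 CPM at rest and 26, 27 and 25.6 CPM with LPS, a log2 fold change of 0.92 (SE 0.16, adjusted p = 4.39e-04). The difference of that response from the one in WT was 0.63 (SE 0.22) with an adjusted p of 0.74, so the responses were not shown to differ.

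All 7 enzymes from triose phosphate isomerase to lactate dehydrogenase were called higher in WT, 6 in 3F and 5 in KO. Tpi1, which equilibrates the triose phosphates, read 532, 385 and 491 CPM in resting WT and 1145, 1073 and 1276 CPM with LPS, a log2 fold change of 1.31 (SE 0.29, adjusted p = 0.00293). Pgk1, which makes the first ATP of the lower pathway, read 459, 385 and 509 CPM and 1034, 993 and 1276 CPM, with 1.29 (SE 0.26, adjusted p = 0.00142). Ldha, which makes lactate, read 916, 741 and 915 CPM and 1945, 1657 and 2033 CPM, with 1.13 (SE 0.22, adjusted p = 0.00115). None of these genes had an LPS-treated WT library within the resting WT range. Pkm, the pyruvate kinase, had the highest CPM of the set in all 18 libraries and a smaller fold. It read 3262, 2803 and 3087 CPM at rest and 4345, 4402 and 4666 CPM with LPS in WT, a log2 fold change of 0.55 (SE 0.19, adjusted p = 0.0432), and was not called in KO (0.45 (SE 0.19)) or 3F (0.41 (SE 0.19)) with all libraries. It was called in KO without resting KO replicate 3, at 0.70 (adjusted p = 0.00659), and in 3F without resting 3F replicate 3, at 0.63 (adjusted p = 0.00974).

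Resting KO replicate 3 and resting 3F replicate 3 both stood high for some of these enzymes. For Pgk1 the resting KO libraries read 369, 405 and 830.0 CPM and the LPS-treated ones 1121, 1259 and 1268 CPM, a log2 fold change of 1.19 (SE 0.26, adjusted p = 0.00249), and 1.65 (adjusted p = 8.45e-06) without replicate 3. Resting 3F libraries read 445, 412 and 689 CPM for Pgk1, 500.2, 494 and 936 CPM for Tpi1 and 3000, 2923 and 4727 CPM for Pkm, with replicate 3 the highest each time. Eno1, the enolase, did not share that, with 471, 434 and 405 CPM at rest and 939, 1013 and 1100 CPM after LPS in 3F, a log2 fold change of 1.22 (SE 0.20, adjusted p = 3.28e-04). It was called in WT (0.95) and KO (0.77, or 1.18 (adjusted p = 1.62e-06) without resting KO replicate 3) too, as was Gapdh (0.89 in WT, 0.58 in KO, 1.10 in 3F). Pgam1, the phosphoglycerate mutase, was called in WT (0.68) and 3F (0.93), and in KO went from 0.37 (SE 0.17) to 0.71 (adjusted p = 3.77e-05) without resting KO replicate 3.

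Several of these enzymes have near-identical copies in the genome, which limits their counts. The authors kept reads with a mapping quality of at least 50, and of the 50-base words in the annotated transcripts (GENCODE M21) 53.9% of those of Pgk1, 36.2% of Pgam1, 26.0% of Eno1, 25.8% of Pkm and 24.7% of Gapdh also occur in transcripts of other genes. Gapdh read only 7.30 to 21.8 CPM across the 18 libraries, and 209 pseudogenes shared a word with it. The level of these genes is therefore uncertain, and the share of reads lost was not measured here. Slc2a1, Slc2a6, Slc16a3, Hk2, Pfkfb4 and P4ha1 shared no such word with another gene.

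All 3 regulators of flux were called higher in each genotype. Pfkfb3 (chr2:11471433-11554077, minus strand) makes fructose 2,6-bisphosphate, the activator of phosphofructokinase. WT libraries read 23.6, 25.8 and 25.1 CPM at rest and 81.2, 60.7 and 94.7 CPM with LPS, a log2 fold change of 1.67 (SE 0.18, adjusted p = 5.67e-06). KO libraries read 29.4, 28.2 and 37.8 CPM and 160.3, 166 and 130.4 CPM, the largest rise of the set in that genotype at 2.26 (SE 0.18, adjusted p = 2.22e-07). In 3F the libraries read 29.4, 29.7 and 19.9 CPM and 81.5, 101 and 87.5 CPM, with 1.75 (SE 0.18, adjusted p = 2.95e-06). Every LPS-treated KO library lay above every LPS-treated WT and 3F library. Pfkfb4, its relative, rose by 0.66 (SE 0.11) in WT, 0.49 (SE 0.11) in KO and 0.58 (SE 0.11) in 3F. Pdk1, the kinase that inhibits pyruvate dehydrogenase, rose by 0.83 (SE 0.11), 0.79 (SE 0.11) and 0.73 (SE 0.11).

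Hif1a, the oxygen-regulated subunit, read 204, 187 and 229 CPM in resting WT and 361, 319 and 307 CPM with LPS, a log2 fold change of 0.67 (SE 0.15, adjusted p = 0.00267). Its rise in 3F was 0.83 (SE 0.15, adjusted p = 5.34e-04). In KO the resting libraries read 311, 288 and 261 CPM and the LPS-treated ones 345, 326 and 397 CPM, and the log2 fold change of 0.31 (SE 0.14, adjusted p = 0.124) did not pass the test, nor did it without resting KO replicate 3, at 0.25 (adjusted p = 0.242). The resting KO libraries all lay above the resting WT libraries for Hif1a. Arnt, the constant partner, changed by 0.15 (SE 0.09) in WT and -0.01 (SE 0.09) in KO, neither called, and was called in 3F at 0.27 (SE 0.09), a call that was lost without resting 3F replicate 3 at 0.19 (adjusted p = 0.143). Egln3, a prolyl hydroxylase that HIF induces, read 9.03, 9.50 and 7.73 CPM and 30.3, 24.3 and 27.8 CPM in 3F, a log2 fold change of 1.63 (SE 0.24, adjusted p = 9.67e-05), and was called in WT (1.02) and KO (0.79) as well. Egln1, the main oxygen sensor, was called in WT (0.57) and 3F (0.76), and in KO went from 0.33 (SE 0.14) to 0.48 (adjusted p = 0.0124) without resting KO replicate 3. Vhl was called in all 3 genotypes (0.42, 0.60 and 0.47 in WT, KO and 3F).

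The hypoxia targets did not move as a block. In WT, 2 of the 6 tested were called higher, 2 lower and 2 neither, and their median log2 fold change was 0.04. Bnip3, a mitophagy receptor, read 53.7, 41.2 and 56.2 CPM at rest and 175, 136 and 177 CPM with LPS in WT, a log2 fold change of 1.69 (SE 0.25, adjusted p = 1.34e-04). KO libraries read 51, 60.9 and 121 CPM and 189, 242 and 203 CPM, with 1.45 (SE 0.25, adjusted p = 4.25e-04), and 3F libraries 50.4, 52 and 68.1 CPM and 189.8, 193 and 161 CPM, with 1.68 (SE 0.25, adjusted p = 1.31e-04). P4ha1, a collagen prolyl hydroxylase subunit, was called higher in WT (1.20 (SE 0.23)) and 3F (1.03 (SE 0.23)). In KO it was not called with all libraries, at 0.63 (SE 0.23), and was called at 1.06 (adjusted p = 1.07e-04) without resting KO replicate 3.

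Vegfa, the growth factor of blood vessels, fell in every genotype. WT libraries read 75.7, 63.4 and 70.4 CPM at rest and 31.8, 21.6 and 19 CPM with LPS, a log2 fold change of -1.53 (SE 0.27, adjusted p = 5.06e-04). KO libraries read 107, 84.5 and 41.7 CPM and 19.4, 18.2 and 17.8 CPM, with -2.07 (SE 0.27, adjusted p = 3.52e-05). The 3F libraries read 71.2, 76.9 and 56.2 CPM and 31.9, 23.7 and 21.2 CPM, with -1.42 (SE 0.27, adjusted p = 9.17e-04). No LPS-treated library overlapped the resting libraries of its genotype. Hilpda, which binds lipid droplets, was called lower in WT (-0.72 (SE 0.20)) and 3F (-0.92 (SE 0.20)), with -0.43 (SE 0.20) in KO. Ndrg1 and Ankrd37 were not called in any genotype, with log2 fold changes from -0.43 to 0.51, and Ankrd37 read at most 13.2 CPM.

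**Figure D2:**
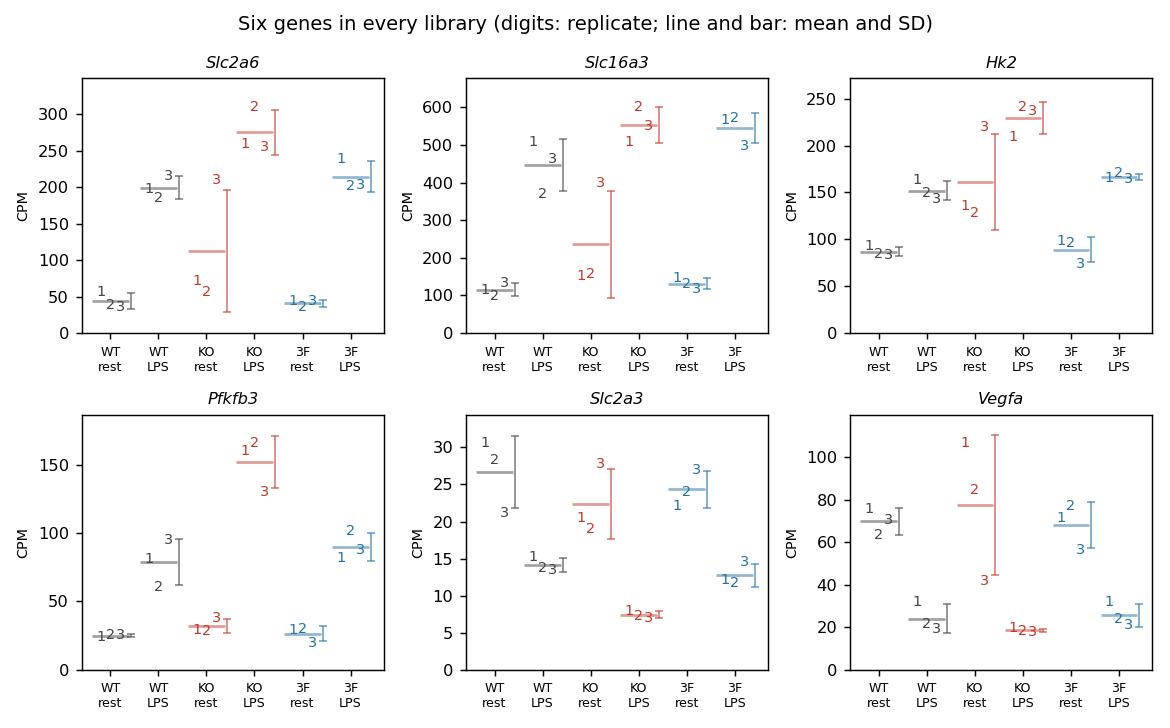
CPM (y axis, from 0) of 6 members in each of the 18 libraries, with the replicate number as the plotting symbol, the mean as a line and the SD as a bar. Slc2a3 and Vegfa are lower and the other 4 genes higher with LPS in each genotype, and resting KO replicate 3 sits apart from replicates 1 and 2 for Slc2a6 (209 against 71.7 and 56.7 CPM) and Slc16a3 (400.3 against 151 and 156 CPM).

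Within a family of carriers or isoenzymes, LPS shifted the balance between members. Levels between genes are compared here as CPM per kb of exon, and 8 ratios within a library were tested by an exact permutation of states within genotype (two-sided, 8000 assignments, smallest possible p = 0.00025, adjusted over 8). Each change of a log2 ratio is the mean over the 3 genotypes, so it need not hold in each of them. Slc2a1 stood at 21.1 ± 3.86 CPM per kb (SD, n = 3) and Slc2a6 at 20.4 ± 5.26 in resting WT, which did not differ beyond their spread, and with LPS they stood at 43 ± 2.14 and 93.2 ± 7.21. The log2 ratio of Slc2a6 over Slc2a1 rose by 1.15 (exact permutation p = 5.00e-04, adjusted p = 0.001). Slc2a3 was the lowest glucose carrier, at 6.11 ± 1.12 CPM per kb at rest and 3.24 ± 0.211 with LPS. The log2 ratio of Slc2a1 over Slc2a3 rose by 2.03 (exact permutation p = 2.50e-04, adjusted p = 6.67e-04). For the lactate carriers the log2 ratio of Slc16a3 over Slc16a1 rose by 1.94 (exact permutation p = 0.001, adjusted p = 0.00133). In resting KO replicate 3 that ratio, 33.6, exceeded the ratio in every LPS-treated library (15 to 26.3).

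Hk3 was the most abundant hexokinase in every group, at 134 ± 17.9 CPM per kb in resting WT against 19.9 ± 1.76 for Hk1 and 14.6 ± 0.886 for Hk2. With LPS, Hk1 (28.4 ± 0.514) and Hk2 (25.4 ± 1.68) came closer to each other in WT. The log2 ratio of Hk2 over Hk1 rose by 0.23 (exact permutation p = 0.003, adjusted p = 0.00343), and that of Hk3 over Hk1 changed by -0.12 (exact permutation p = 0.251, adjusted p = 0.251), which is not past the threshold. By genotype Hk2 over Hk1 changed by 0.29 in WT, 0.11 in KO and 0.28 in 3F, and resting and LPS libraries overlapped in WT and KO. Resting WT held Pfkl (27.5 ± 5.35 CPM per kb) and Pfkp (28.2 ± 0.399) at levels that did not differ beyond their spread, with Pfkm below both (6.57 ± 1.26). After LPS Pfkl led at 83.1 ± 10.2 CPM per kb against 31.8 ± 0.775 for Pfkp. The log2 ratio of Pfkp over Pfkl changed by -1.30 (exact permutation p = 2.50e-04, adjusted p = 6.67e-04). Pfkfb3 over Pfkfb4 rose by 1.32 (exact permutation p = 2.50e-04, adjusted p = 6.67e-04) and Egln3 over Egln1 by 0.60 (exact permutation p = 0.001, adjusted p = 0.00133) on the log2 scale. By genotype Egln3 over Egln1 rose by 0.45 in WT, 0.47 in KO and 0.87 in 3F. In WT the libraries overlapped, with ratios of 0.190 to 0.289 at rest and 0.257 to 0.479 with LPS. In KO the phosphofructokinases stood apart at rest already. The ratio of Pfkp over Pfkl was 0.562, 0.547 and 0.557 in resting KO libraries, against 0.883 to 1.28 in resting WT and 0.879 to 0.989 in resting 3F, and it was lower with LPS in every genotype (0.223 to 0.447). The ratio of Slc2a6 over Slc2a1 in resting KO was 1.36, 0.951 and 2.66, the last within the range of the LPS-treated libraries (1.92 to 2.91). These ratios within a library do not depend on the scaling of its total.

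**Figure D3:**
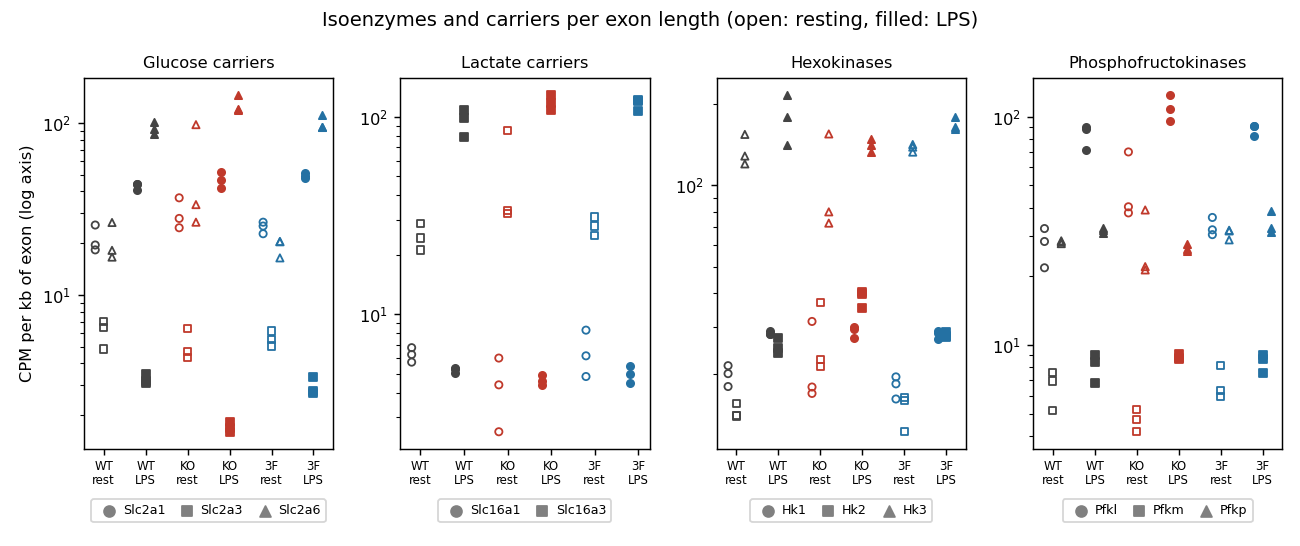
CPM per kb of exon (log axis) of the glucose carriers, lactate carriers, hexokinases and phosphofructokinases in each library, open at rest and filled with LPS, coloured by genotype. In WT and 3F Pfkl parts from Pfkp and Slc2a6 from Slc2a1 with LPS, and Hk3 stays above the other hexokinases in every group. In KO the gap of Pfkl over Pfkp is wider at rest already, with Pfkp over Pfkl at 0.547 to 0.562. Resting WT and 3F libraries held 0.879 to 1.28 for that ratio.

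The comparison of KO with WT at rest asked whether loss of miR-146a changed the set without LPS. With all 3 resting KO libraries, 7 of 34 members were called higher and 2 lower, against 5.12% and 4.27% of all genes. The 7 were carriers (Slc2a1, Slc2a6 and Slc16a3), Hk2, Pfkl, Pfkfb4 and P4ha1. The 2 lower members were Hilpda and Ndrg1. Each of the 7 higher values was smaller without resting KO replicate 3, and those of Slc2a6, Slc16a3 and P4ha1 fell the most. Resting KO replicate 3 held the highest of the 3 resting KO values for 28 of the 34 members. Of the 24 members called higher with LPS in WT, 9 read at least as high as the lowest LPS-treated WT library in resting KO replicate 3, 1 in replicate 1 and 0 in replicate 2. The median ratio of replicate 3 to the mean of replicates 1 and 2 was 1.58. Relative to resting WT, the median log2 level of the members was 0.04 and 0.09 in resting KO replicates 1 and 2 and 0.61 in replicate 3, while the LPS-treated WT libraries stood at 0.66 to 0.73. Without replicate 3, only Hk2 was called higher and Hilpda, Hk3 and Pfkp lower, and the median log2 fold change of the set was 0.07 in place of 0.28. Without the resting libraries numbered 3 of both KO and 3F, an alternative added after seeing the data, 6 members were called higher (Slc2a6, Slc16a3, Hk2, Pfkl, Pfkfb4 and Hif1a) and 5 lower (Hk3, Pfkm, Pfkp, Hilpda and Ndrg1), with a median of 0.09. A fit of these 2 groups alone called 1 member, Hilpda. The share of all genes called differs between fits and is not given for these refits, so their counts cannot be set against it.

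Slc2a6 in resting KO, at 71.7, 56.7 and 209 CPM against 56.4, 38.9 and 35.5 CPM in WT, had a log2 fold change of 1.36 (SE 0.34, adjusted p = 0.02), and 0.56 (adjusted p = 0.0684) without replicate 3. Slc16a3 read 151, 156 and 400.3 CPM against 114, 98.8 and 134 CPM, with 1.03 (SE 0.28, adjusted p = 0.0286), and 0.41 (adjusted p = 0.112) without it. Slc2a1 read 86.2, 97.7 and 129 CPM against 64.1, 68.4 and 89.4 CPM, with 0.49 (SE 0.15, adjusted p = 0.0437), and 0.32 (adjusted p = 0.176). Each of these carriers lost its call without that library, and Slc2a6 and Slc16a3 were called at 0.58 (adjusted p = 0.0327) and 0.43 (adjusted p = 0.0452) when the resting libraries numbered 3 of KO and 3F were both left out. Pfkl, at 144, 154 and 267 CPM against 123, 83 and 108 CPM, went from 0.84 (SE 0.20, adjusted p = 0.016) to 0.51 (adjusted p = 0.0589). P4ha1, at 151, 166 and 326 CPM against 134, 102 and 129 CPM, went from 0.81 (SE 0.23, adjusted p = 0.036) to 0.38 (adjusted p = 0.17). For Pfkl and P4ha1 replicates 1 and 2 of resting KO lay just above the highest WT library and replicate 3 far above it. The interferon-response list, all 12 of whose genes were called higher in this comparison, moved with these genes across the resting KO libraries, and its part in them was not tested.

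Hk2 differed in all 3 resting KO libraries. They read 136, 128 and 219.7 CPM against 93.1, 84.1 and 83.7 CPM in resting WT, a log2 fold change of 0.89 (SE 0.17, adjusted p = 0.00427), and 0.60 (adjusted p = 0.00714) without replicate 3. Hilpda was lower in all 3, at 11.4, 11.9 and 10.7 CPM against 23.4, 18.9 and 22.7 CPM, with -0.94 (SE 0.20, adjusted p = 0.00873), and -0.90 (adjusted p = 0.0239) without replicate 3. Ndrg1, a stress-response gene, read 28, 29.6 and 28.1 CPM against 40.9, 53 and 38.6 CPM, with -0.63 (SE 0.17, adjusted p = 0.031), and -0.62 (adjusted p = 0.07). For Hilpda and Ndrg1 every resting KO library lay below every resting WT library, and for Hk2 every one lay above. Hk2 was 1 of 13 tested members wholly above resting WT, and Hilpda and Ndrg1 were the 2 wholly below. The share of all genes that separated in this way was not counted, so these counts are not read as a trait of the set. Hk3 and Pfkp were lower in replicates 1 and 2 alone. Hk3 read 243, 268 and 519 CPM in resting KO against 517, 430.4 and 403 CPM in WT, and its log2 fold change of -0.39 (SE 0.22) became -0.82 (adjusted p = 0.00565) without replicate 3. Pfkp read 95.7, 98.9 and 175 CPM against 128, 125 and 127 CPM, and -0.04 (SE 0.17) became -0.38 (adjusted p = 0.0264). Pfkfb4 was called at 0.41 (SE 0.11), and not without replicate 3 at 0.33 (adjusted p = 0.0955). A summed level of 10 proliferation genes was lower in resting KO (292 to 423 CPM) than in resting WT (864 to 1220 CPM), and its part in these differences was not tested.

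**Figure D4:**
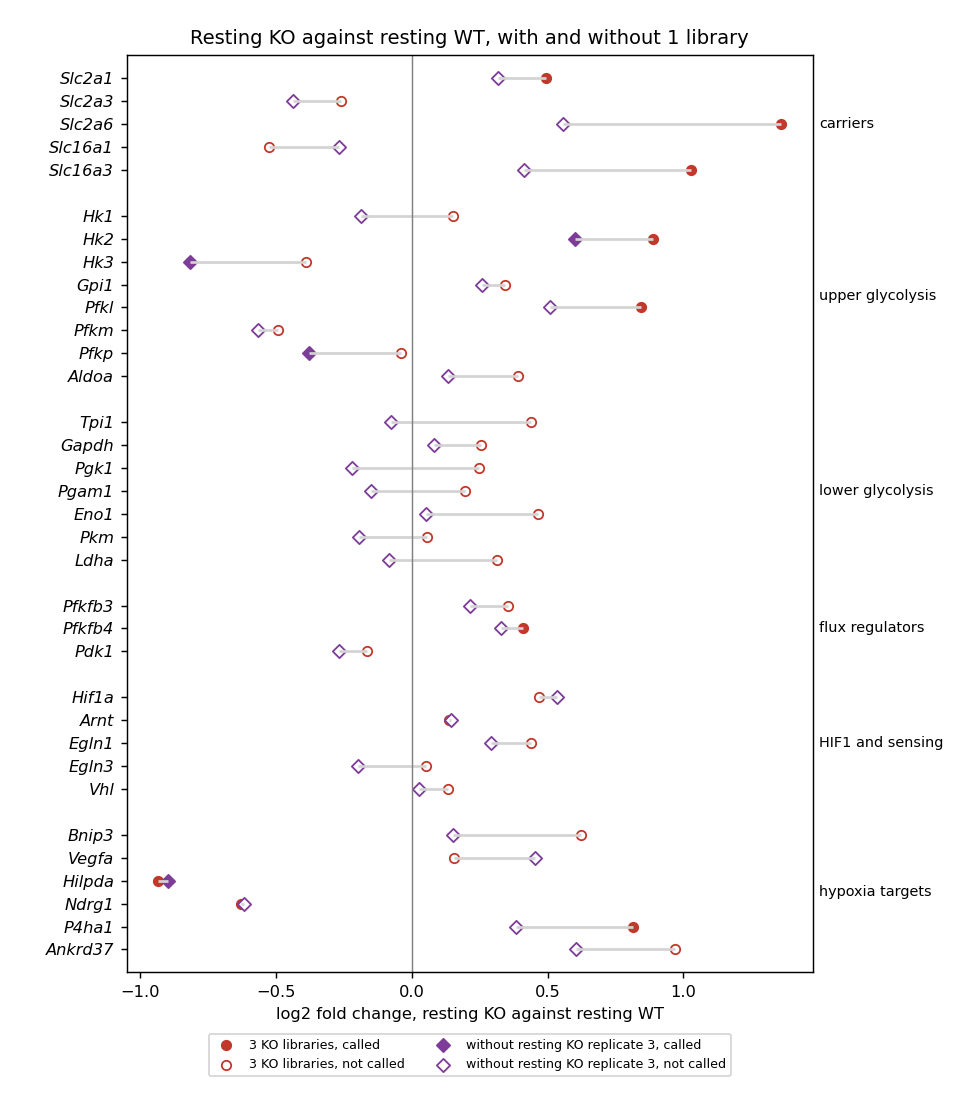
Log2 fold change of resting KO over resting WT (x axis) for the 34 tested members with all 3 KO libraries (circles) and without resting KO replicate 3 (diamonds), filled where the adjusted p was under 0.05. Hk2 and Hilpda are filled in both, and the carriers Slc2a1, Slc2a6 and Slc16a3 shift left when the library is left out.

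KO and WT were also compared after LPS. Of 34 members, 2 were called higher and 1 lower, against 1.89% and 2.9% of all genes. Pfkfb3 read 160.3, 166 and 130.4 CPM in KO and 81.2, 60.7 and 94.7 CPM in WT, a log2 fold change of 0.95 (SE 0.17, adjusted p = 0.00535). Slc2a3 read 7.99, 7.31 and 6.99 CPM in KO and 15.2, 13.8 and 13.5 CPM in WT, with -0.93 (SE 0.17, adjusted p = 0.00503). KO and WT libraries did not overlap for either gene, and both calls were kept in all 12 alternatives run. Hk2 read 209, 242 and 237 CPM against 163, 149 and 143 CPM, again without overlap, but its log2 fold change of 0.59 (SE 0.16, adjusted p = 0.0498) lost its call in 7 of 12 alternatives, with adjusted p from 6.15e-04 to 0.182. Hk2 thus read higher in every KO library than in any WT library of the same state. The other 31 members differed by -0.65 (Hilpda) to 0.47 (Slc2a6) and did not pass the test. Of 10 proliferation genes 6 were called lower in KO than WT with LPS, with summed levels of 212 to 297 CPM in KO and 366 to 703 CPM in WT, and their part in these differences was not tested.

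No member was called between 3F and WT. At rest 0 of 34 members passed, as did 0% of all genes, and with LPS 0 members were called, against 0.00881% of all genes. At an unadjusted p under 0.05, 2 members passed at rest and 0 with LPS. DESeq2 and limma-voom called 0 members as well in both states. The log2 differences of 3F from WT ran from -0.23 (Egln3) to 0.74 (Ankrd37) at rest and from -0.16 (Slc2a3) to 0.38 (Egln3) with LPS. Of the genes called between KO and WT with LPS, Pfkfb3 differed by 0.19 (SE 0.17), Slc2a3 by -0.16 (SE 0.16) and Hk2 by 0.14 (SE 0.16) between 3F and WT. A test that misses the threshold does not show that 3F and WT are the same.

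KO was also set against 3F directly. At rest 4 members were called higher in KO and 4 lower, against 6.79% and 6.1% of all genes. Slc2a6 (71.7, 56.7 and 209 CPM in KO, 43.6, 35.1 and 43.8 CPM in 3F) differed by 1.46 (SE 0.35, adjusted p = 0.0143) and Hk2 (136, 128 and 219.7 and 97.8, 95.7 and 73.3 CPM) by 0.85 (SE 0.17, adjusted p = 0.00675). Hif1a (311, 288 and 261 and 235, 203 and 161 CPM) differed by 0.52 (SE 0.15, adjusted p = 0.0301), and Pfkfb4 (68.6, 72.2 and 82.7 and 57.5, 62.3 and 50.3 CPM) by 0.39 (SE 0.11, adjusted p = 0.0321). These 4 genes did not overlap between the genotypes at rest. The lower members were Hilpda (11.4, 11.9 and 10.7 and 20.4, 24 and 37.2 CPM) at -1.23 (SE 0.20, adjusted p = 0.00242), Ndrg1 (28, 29.6 and 28.1 and 48.9, 49.4 and 30.0 CPM) at -0.60 (SE 0.17, adjusted p = 0.0326), Pdk1 (132, 140.4 and 167 and 191, 182 and 207 CPM) at -0.40 (SE 0.11, adjusted p = 0.0286) and Pfkm (14, 12.3 and 15.4 and 17.6, 18.6 and 24.1 CPM) at -0.51 (SE 0.16, adjusted p = 0.0473). Without resting KO replicate 3, Slc2a6 differed by 0.66 (adjusted p = 0.0342) and Hk2 by 0.56 (adjusted p = 0.011), Pfkfb4, Ndrg1 and Pfkm lost their calls, and Hk3 at -0.85 (adjusted p = 0.005) and Pfkp at -0.50 (adjusted p = 0.0078) were called lower. Without resting 3F replicate 3, Hif1a, Pfkfb4, Pdk1 and Pfkm lost their calls. Without the resting libraries numbered 3 of both genotypes, 2 members were called higher and 5 lower, and Hif1a, Pfkfb4 and Pfkm lost their calls. A fit of the 2 groups alone called 0 of them. The shares of all genes called in these refits are not given, so their counts cannot be set against a background.

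With LPS, 1 member was called higher in KO than in 3F and 2 lower, against 1.51% and 2.37% of all genes. Pfkfb3 read 160.3, 166 and 130.4 CPM in KO and 81.5, 101 and 87.5 CPM in 3F, a difference of 0.75 (SE 0.17, adjusted p = 0.0224). Slc2a3 read 7.99, 7.31 and 6.99 CPM and 12.1, 11.7 and 14.5 CPM, with -0.77 (SE 0.17, adjusted p = 0.0183). Ndrg1 read 26.2, 19.1 and 27.2 CPM and 40.6, 37.6 and 39.8 CPM, with -0.70 (SE 0.17, adjusted p = 0.0325). The KO libraries used here are those compared with WT, so the comparisons are not independent. None of the 3 calls held when KO replicate 2, 3F replicate 1 or 3F replicate 3 with LPS was left out.

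The difference of the LPS response itself was tested for each mutant. For KO against WT 0 members were called, against 0.00881% of all genes, with 3 members at an unadjusted p under 0.05 and adjusted p of at least 0.691. The largest differences were -0.90 (SE 0.47) for Slc2a6, -0.72 (SE 0.39) for Slc16a3 and -0.67 (SE 0.23) for Slc2a3. Without resting KO replicate 3 these became -0.09 (adjusted p = 1), -0.11 (adjusted p = 1) and -0.49 (adjusted p = 0.832), and the largest were then -0.84 (adjusted p = 0.569) for Vegfa, 0.73 (adjusted p = 0.596) for Pfkfb3 and 0.70 (adjusted p = 0.575) for Pfkm, none of them called. For 3F against WT 0 members were called, against 0% of all genes, with 0 at an unadjusted p under 0.05 and adjusted p of at least 0.975. The median difference over members was -0.20 for KO, 0.03 for KO without resting KO replicate 3, and 0.04 for 3F. The set was thus not shown to respond differently to LPS in either mutant, whichever side of the threshold a member fell on in a single genotype.

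**Figure D5:**
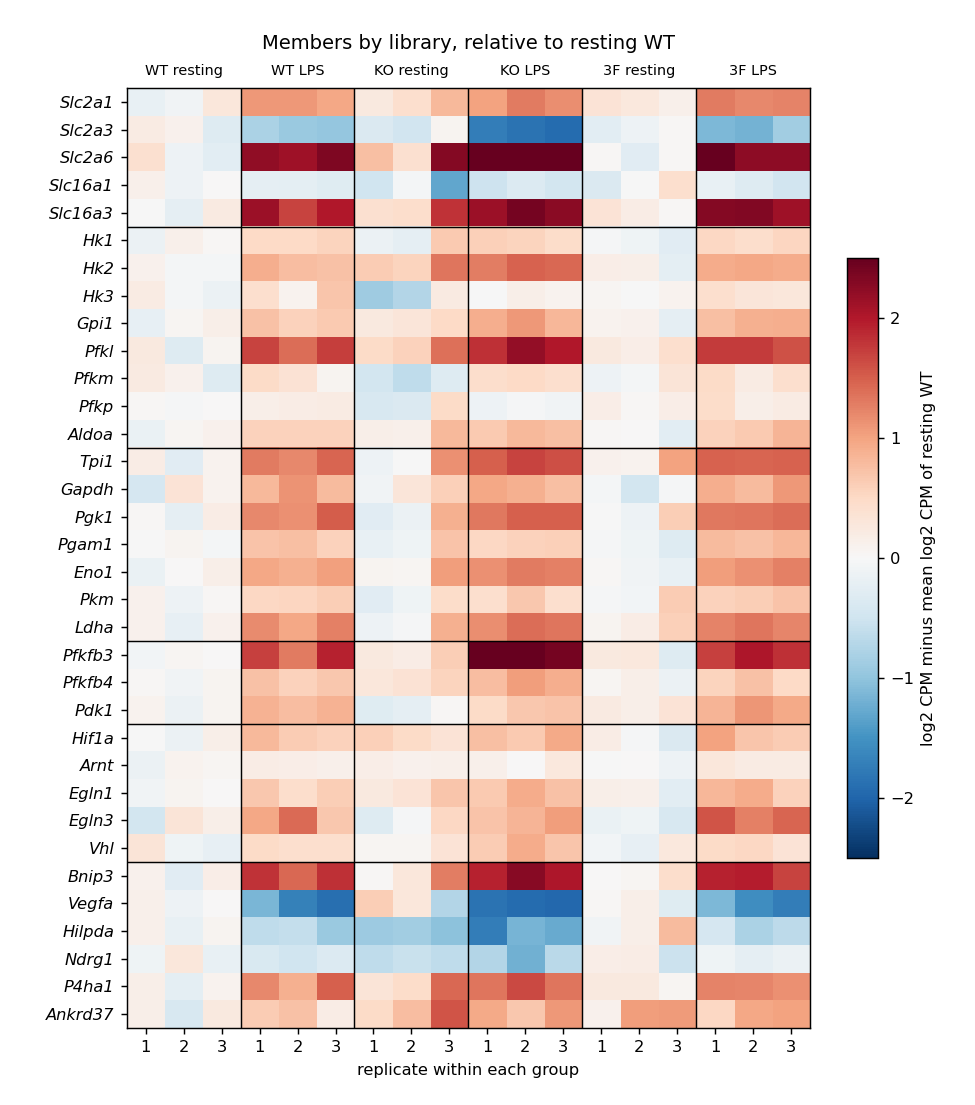
Log2 CPM of each tested member (rows, by role) in the 18 libraries (columns, by group and replicate) minus its mean log2 CPM in resting WT. The LPS columns are red for most rows and blue for Slc2a3, Vegfa, Hilpda, Slc16a1 and Ndrg1, and resting KO replicate 3 carries the LPS colours in many rows.

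Other genes of the same pathways were listed as well. Of 27 other genes of glycolysis and sugar entry, 15 were tested and LPS in WT was followed by 2 higher and 3 lower calls, with a median log2 fold change of -0.15. Of 29 other HIF pathway and hypoxia-response genes, 24 were tested, of which 10 were higher and 3 lower (median 0.22), and 16.3% of all genes were higher and 12.3% lower in that comparison. Lox, the lysyl oxidase that crosslinks collagen, had a log2 fold change of 6.10 (SE 0.48, adjusted p = 2.15e-07) in WT, with 0.328, 0.979 and 1.35 CPM at rest and 39.6, 63.9 and 70.8 CPM after LPS. Nos2, the inducible nitric oxide synthase, read 0.0657, 0.0753 and 0.387 CPM and 8.03, 3.96 and 26.9 CPM in WT, a log2 fold change of 6.29 (SE 1.44, adjusted p = 0.00382), from resting libraries with 4 counts or fewer. Epas1, which encodes HIF2α, was called lower at -2.44 (SE 0.64, adjusted p = 0.00911), and the transcriptional repressor Bhlhe40 at -1.88 (SE 0.28, adjusted p = 1.52e-04). The 4 genes were called the same way in KO (4.71 (SE 0.43, adjusted p = 8.07e-07) for Lox and -2.81 (SE 0.64, adjusted p = 0.0036) for Epas1) and in 3F (6.00 (SE 0.47, adjusted p = 2.11e-07) and -2.90 (SE 0.68, adjusted p = 0.0043)). Nos2 in KO went from 3.60 (SE 0.97, adjusted p = 0.0108) to 8.17 (adjusted p = 3.55e-05) without resting KO replicate 3. Its resting KO libraries held 1, 2 and 81 counts. Epas1 held 4 to 22 counts in LPS-treated libraries and 3 in resting 3F replicate 3, so its values rest on few counts. Between genotypes, the hypoxia list had 1 gene higher and 2 lower in KO than WT with LPS. They were Ero1l, an oxidase of protein folding, at 0.37 (SE 0.10, adjusted p = 0.0422), Bhlhe40 at -1.38 (SE 0.31, adjusted p = 0.0199) and Bhlhe41 at -0.75 (SE 0.17, adjusted p = 0.0203). At rest P4ha2, another collagen prolyl hydroxylase subunit, read 8.47, 10.6 and 19 CPM in KO and 7.03, 6.93 and 5.22 CPM in WT, a log2 fold change of 0.95 (SE 0.22, adjusted p = 0.0135), and 0.56 (adjusted p = 0.0344) without resting KO replicate 3.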

How the data were processed

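The deposited table gives raw counts of reads per protein-coding gene with an exon length. Per the study's methods, the authors trimmed adapters (cutadapt 1.8.3), removed rDNA reads, aligned to mm10 with HISAT2 2.1.0 and counted with featureCounts 1.5.3 on the reverse strand. These deposited counts were filtered with filterByExpr, scaled by TMM and fitted in edgeR 4.0.16 (R 4.3.3), 18 libraries with 6 group coefficients, by two-sided quasi-likelihood tests with Benjamini-Hochberg adjustment over 11357 genes. The SE was the log2 fold change divided by the square root of F. P-values rest on the spread between 3 cultures a group, estimated jointly over all 6 groups. Libraries that stood apart therefore also enter the p-values of comparisons that do not contain them. Replicate pairs differed beyond sampling noise (chi-square per degree of freedom of at least 7.06). Total counts of 4071084 to 19818043 set the precision of low genes, counting error only.

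The members, lists and tests were chosen with earlier results of these data known. All 35 members are reported. Values per library are given for called members (the 8 largest where more were called) and for Hif1a, Slc2a1, Hk2, Pkm, Ldha and Vegfa in the WT response, and up to 2 higher and 2 lower genes came from the other lists. Hk3 and Pfkp at rest were added after their values were seen. In simulated counts with 200 changed genes of 11357 for the WT response, 67% of log2 changes of 1 and 95% of log2 changes of 2 were recovered. Alternatives were DESeq2 1.42.0, limma-voom 3.58.1, size factors, no filter, compared groups alone, a replicate block and left-out libraries. Replicate numbers were not taken as pairs. The proteome was not analysed here.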

Additional observations from a re-analysis of the deposited data

Results flagged for a closer look

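Slc16a1 moved in opposite directions with LPS in every replicate of KO and of the other genotypes, when each LPS library was set against the mean of the resting libraries of its genotype. The mean log2 change was -0.25 in WT (-0.31 to -0.22), 0.18 in KO (0.10 to 0.27) and -0.34 in 3F (-0.49 to -0.20). KO minus WT was 0.434 and 3F minus KO was -0.526. The fitted difference between KO and WT was 0.34 (SE 0.32), which was not called (adjusted p = 1), and the difference between KO and 3F was not tested. The resting KO libraries read 19.4, 26.5 and 11.2 CPM, with the lowest value in replicate 3, and without that library the KO response was -0.17 (adjusted p = 0.497). All 18 libraries read between 11.2 and 36.8 CPM.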

How the results depend on the processing

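No call of a member changed sign in any alternative run. The LPS response was the firmest result: 22 of 27 calls in WT, 12 of 20 in KO and 24 of 27 in 3F were kept in all alternatives, and the counts without 1 library ran from 23 to 24 in WT, 15 to 28 in KO and 24 to 27 in 3F. The compared groups alone gave 12 calls for LPS in KO. The contrasts of KO depended on the setting. At rest 0 of the 9 calls against WT and 0 of the 8 against 3F were kept in all alternatives. Some were lost only in the replicate block or with the compared groups alone. Against WT, these were Hilpda, kept in 12 of 13 alternatives, and Hk2, kept in 11. Against 3F they were Hilpda, Hk2 and Slc2a6, each kept in 11 of 13. For KO against WT at rest, DESeq2 gave 14 calls, against 13.1% of all genes, and the compared groups alone gave 1. Single left-out libraries gave 2 to 11. These included 4 without WT replicate 1, 2 without WT replicate 2 and 4 without KO replicate 3. For KO against 3F at rest, DESeq2 gave 15, against 18.5% of all genes, and the compared groups alone gave 0. Left-out libraries gave 4 to 10, with 5 without 3F replicate 2 and 4 without 3F replicate 3. With LPS, KO against WT gave 6 calls by limma-voom, which called 15.6% of all genes. The compared groups alone gave 5, and left-out libraries gave 2. With LPS, KO against 3F gave 5 by DESeq2, against 7.06% of all genes, 9 by limma-voom and 12 with the compared groups alone. Left-out libraries gave 0 to 2. The count was 1 without KO replicate 1 and 0 without KO replicate 2, 3F replicate 1 or 3F replicate 3. The cause was not tested. Leaving out the resting libraries 3 of both KO and 3F, chosen after seeing the data, gave 11 calls for KO against WT at rest, of which 6 were higher and 5 lower. Where no share of all genes stands beside a count of an alternative, that count cannot be set against a background. Counts for 3F against WT and for both interactions were 0 in all alternatives. All 8 ratios kept their direction and side of the threshold in 20 alternatives each.

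The replicate numbers were not taken as pairs. The column headers give resting and LPS libraries of the same genotype and number a shared letter, A to C. The labels do not say whether a letter stands for an animal. Within a genotype, deviations of the resting and LPS libraries of the same number correlated at 0.028 to 0.318. Of 9 resting libraries, 8 correlated best with their own number. Letters and correlations both hint at pairs within a genotype. With such pairs as a block, the LPS response lost the calls of Vhl in WT and Arnt in 3F. With a replicate block, KO against WT gave 0 calls at rest and 5 with LPS, and KO against 3F gave 0 at rest and 5 with LPS. For these contrasts the block matched libraries of the same number across genotypes, which are different mice. It therefore did not check pairing within a genotype. Deviations of libraries matched in that way correlated at -0.287 to 0.214. Low counts limit Ankrd37 and Adm (0 to 6 counts a library), and the levels of Gapdh, Pgk1 and Pgam1 are limited by their near-identical copies.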

Other observations

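Pathways that branch from glycolysis were counted as well. Of 9 tested genes of the pentose phosphate pathway, 4 were called higher and none lower after LPS in each of WT, KO and 3F, with medians of 0.32, 0.44 and 0.23 on the log2 scale. Of 13 tested genes for pyruvate entry to mitochondria, 1 was higher and 3 lower in WT, 3 and 1 in KO, and 2 and 1 in 3F. Of 19 tested citrate cycle genes, 1 was higher and 3 lower in WT, 1 and 2 in KO, and 2 and 4 in 3F, with medians of 0.02, 0.13 and -0.11. The shares of all genes called are given with the LPS responses of the set.

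Between genotypes at rest, H6pd, which makes NADPH inside the endoplasmic reticulum, was higher in KO than in WT (0.55 (SE 0.14, adjusted p = 0.024)) and than in 3F (0.67 (SE 0.14, adjusted p = 0.00951)). Mdh1, the cytosolic malate dehydrogenase, was lower in KO than in WT (-0.52 (SE 0.15, adjusted p = 0.0418)). Idh2, the mitochondrial isocitrate dehydrogenase, and Eno2, the neuronal enolase, were lower in KO than in 3F (-0.64 (SE 0.17, adjusted p = 0.0237) and -0.64 (SE 0.20, adjusted p = 0.0479)), and Ero1l was higher (0.42 (SE 0.10, adjusted p = 0.0154)). With LPS, Bhlhe40 and Bhlhe41 were lower in KO than in 3F (-1.48 (SE 0.32, adjusted p = 0.0163) and -0.79 (SE 0.17, adjusted p = 0.0171)). The values at rest include resting KO replicate 3. Without it H6pd differed by 0.31 (adjusted p = 0.0848) from WT and 0.44 (adjusted p = 0.0228) from 3F, Ero1l by 0.36 (adjusted p = 0.0475) from 3F, and the calls were lost for Mdh1 at -0.52 (adjusted p = 0.0777), Idh2 at -0.60 (adjusted p = 0.0621) and Eno2 at -0.42 (adjusted p = 0.122). Without resting 3F replicate 3, Idh2 and Eno2 lost their calls against 3F as well, at -0.37 (adjusted p = 0.108) and -0.71 (adjusted p = 0.0612).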
